A study of Mus musculus with 4 samples.

Results

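The genes described here are the Eph receptors and their ephrin ligands, the Slit ligands and their Robo receptors, and the netrins with their receptors of the Unc5, Dcc and neogenin type. They were taken by symbol from the count table, which holds all 36 of them among 24062 genes. Of the 36, 29 reached 1 CPM (the unit of level used here, gene counts relative to library size, scaled by the trimmed mean of M values, TMM) in at least 1 library, and 19 reached 5 CPM.

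The samples were sciatic nerves of 4-month-old C57BL/6 mice of 4 genotypes, each profiled by 1 RNA sequencing library. WT nerves were wildtype, and PKO nerves were P2RY14-/-, lacking a receptor that senses extracellular UDP-sugars through G proteins. NF1 nerves were Nf1fl/fl; Dhh Cre, in which the RAS regulator neurofibromin is deleted where Dhh-Cre is active, that is in the Schwann cell lineage and not in every cell of the nerve. PKO-NF1 nerves carried both (P2RY14-/- with Nf1fl/f and Dhh Cre). The study asked how genes of the blood-nerve barrier are expressed in Nf1-deficient mice. The labels do not say how many animals a library holds, and NF1 is labelled a repeat. With 1 library per genotype there is no spread between animals, no test of a genotype was made, and each 95% interval below is an exact conditional (Clopper-Pearson) interval that covers counting error only. A gene is called higher or lower when 2 libraries were at least 2-fold apart and that interval excluded 1.

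Guidance molecules steer growing axons, and the same families sort cells and pattern vessels in tissues with few growing axons. Eph receptors are receptor tyrosine kinases that bind ephrins on a neighbouring cell. Ephrin-A ligands are held by a lipid anchor and ephrin-B ligands span the membrane and can signal back into their own cell. Slits are secreted and mostly repel cells that carry Robo receptors. Netrins are laminin-related secreted proteins that attract through Dcc and repel through Unc5 receptors. In peripheral nerve, contact between ephrin-B on fibroblasts and EphB2 on Schwann cells is known to sort Schwann cells into cords after injury.

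Total counts ran from 14111201 in WT to 20362685 in PKO, and 3 counts corresponded to 0.152 to 0.183 CPM. P2ry14 stood at 10.9 CPM (PKO) and 10.6 CPM (PKO-NF1) where it was deleted, against 37.6 CPM (WT) and 65.3 CPM (NF1). Nf1 was at 72.8 CPM in WT, 41.0 CPM in PKO, 63.4 CPM in NF1 and 20.5 CPM in PKO-NF1, so PKO, with intact Nf1, had less than NF1. NF1 was 1.15-fold below WT (1.06 to 1.24) and PKO-NF1 1.999-fold below PKO (1.75 to 2.28). A gene total does not show which exons were read, so it does not check the deletion, and genotypes are used here as labelled. Defining genes of myelinating Schwann cells, 10 of 10 measured, summed to between 7073 CPM in NF1 and 32607 CPM in PKO, so the labelled tissue was present in every library. The libraries also stood apart in other ways. The 25 skeletal muscle markers took 7.10% of counts in NF1 and 0.0176% to 0.146% in the other libraries, and ribosomal protein genes took 3.64% in WT, 6.75% in NF1, 11.1% in PKO-NF1 and 14.5% in PKO. Ddx3y, which is Y-linked, was at 0 counts in NF1 and at 396 to 842 elsewhere, while Xist had 9 counts in PKO-NF1 and 4948 to 39699 elsewhere. WT and PKO differed less far, with Xist at 608 CPM in WT and 278 CPM in PKO, and Ddx3y at 48.0 CPM in WT and 22.3 CPM in PKO. The sex-linked genes thus move with genotype in every comparison, most where NF1 or PKO-NF1 is compared, and the 2 cannot be told apart.

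Most of the expressed guidance genes were at their lowest where Nf1 was deleted. Of 29 genes, 25 had their lowest level in NF1 or PKO-NF1, and 23 had their highest in WT or PKO. These counts were not made over all genes. Of the 29, 79.3% were below WT in NF1 and 82.8% below PKO in PKO-NF1, against 50.1% and 50.4% of all genes. Both Nf1-mutant libraries were below both Nf1-intact libraries for 16 of the 29, where 20.5% of all 14700 genes showed that order. The opposite order held for 1 gene, Epha7, against 19.8% of all genes. Summed over the 36 genes the level was 905 CPM in WT, 784 CPM in PKO, 529 CPM in NF1 and 475 CPM in PKO-NF1. The sum was 1.71-fold below WT in NF1 (interval 1.67 to 1.75) and 1.65-fold below PKO in PKO-NF1 (1.60 to 1.69). Without Ntn1, the most abundant of the genes, these were 1.65-fold and 1.59-fold.

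**Figure D1:**
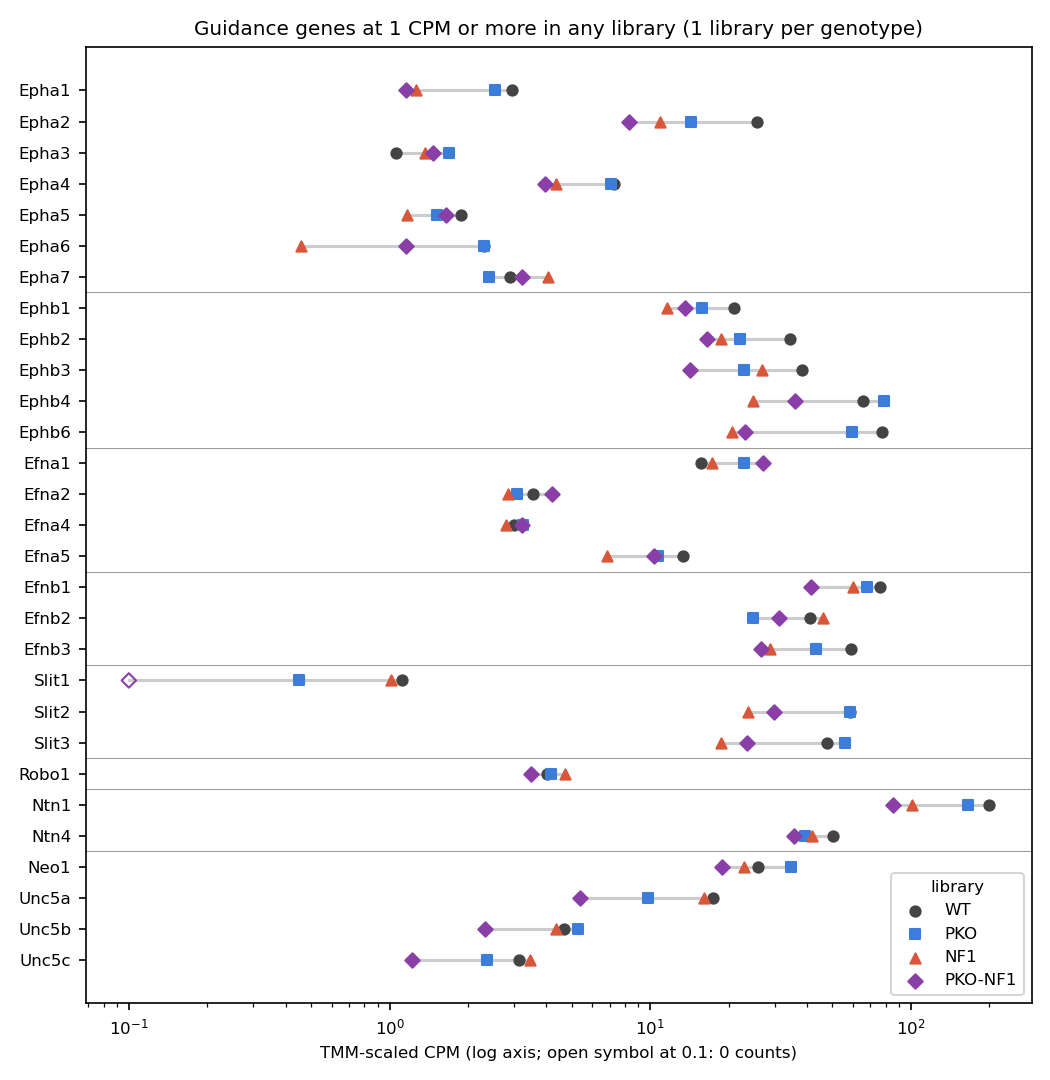
TMM-scaled CPM (log axis) of the 29 guidance genes that reached 1 CPM, 1 point per library, ordered by family, with a grey line from the lowest to the highest library. For 16 genes both Nf1-mutant libraries (triangles and diamonds) lie to the left of both others, and Ntn1 has the highest values, 85.7 to 199 CPM. The open marker at the left edge is Slit1 in PKO-NF1, which had 0 counts.

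Transcript composition moved with the same comparisons and bears on every gene below. The 29 genes had a median GC content of 55.2% and a median longest transcript of 4.75 kb, against 49.7% and 3.35 kb over all genes at 1 CPM. Genes of the highest GC decile had a median log2 ratio of -0.41 (NF1 vs WT) and -0.59 (PKO-NF1 vs PKO), and genes of the lowest decile 0.46 and 0.55. Each ratio was therefore also computed after a smooth trend in length and GC content, fitted over all genes, had been subtracted. With the trends removed 8 of the 29 genes still had both Nf1-mutant libraries below both others (15.3% of all genes), namely Epha1, Epha2, Epha4, Epha6, Ephb6, Efna5, Efnb3 and Slit2. Epha7, Efnb2 and Robo1 then had both above (17.4% of all genes).

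**Figure D2:**
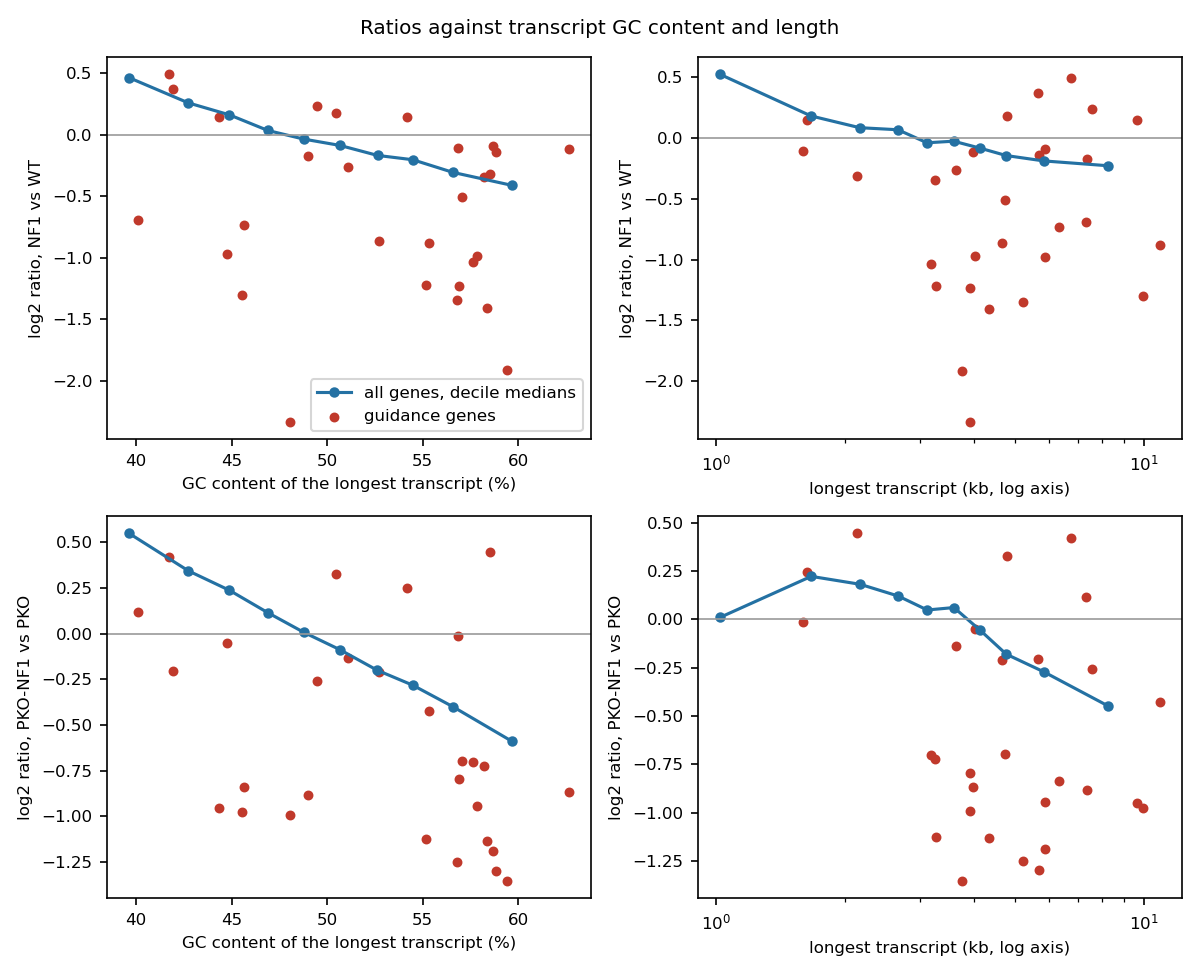
Log2 ratio of the 29 guidance genes (red) against GC content of the longest transcript (left) and its length in kb (right, log axis), for NF1 vs WT (top) and PKO-NF1 vs PKO (bottom), with the median log2 ratio of each decile of all genes (blue). The decile medians descend with GC content from 0.46 to -0.41 and from 0.55 to -0.59, and 23 and 24 of the 29 guidance genes lie below 0.

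The comparison of NF1 with WT, and of PKO-NF1 with PKO, asks what differs when Nf1 is deleted with P2ry14 present or absent; the 2 pairs share no library. In NF1 vs WT 8 of 29 guidance genes were lower, where 6.31% of 14686 genes were, and none was higher, where 10.4% were. In PKO-NF1 vs PKO 6 of 29 were lower (9.78% of 14578 genes) and none higher (5.24%). With muscle genes removed and the libraries rescaled, 8 and 6 were again lower. The median log2 ratio of the 29 was -0.51 and -0.72, against 0.00 and -0.01 over all genes. Epha1, Ephb4, Ephb6 and Slit3 were lower in both pairs, as were 2.62% of all genes, and no guidance gene was higher in both, where 1.3% of all genes were. With the length and GC trends removed 4 genes were lower in NF1 vs WT (Epha6, Ephb6, Efna5 and Slit2; background 4.68%), 1 in PKO-NF1 vs PKO (Epha6; background 5.07%) and none was higher (backgrounds 7.63% and 2.96%; 0.74% higher in both), and the medians were -0.17 and -0.27.

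**Figure D3:**
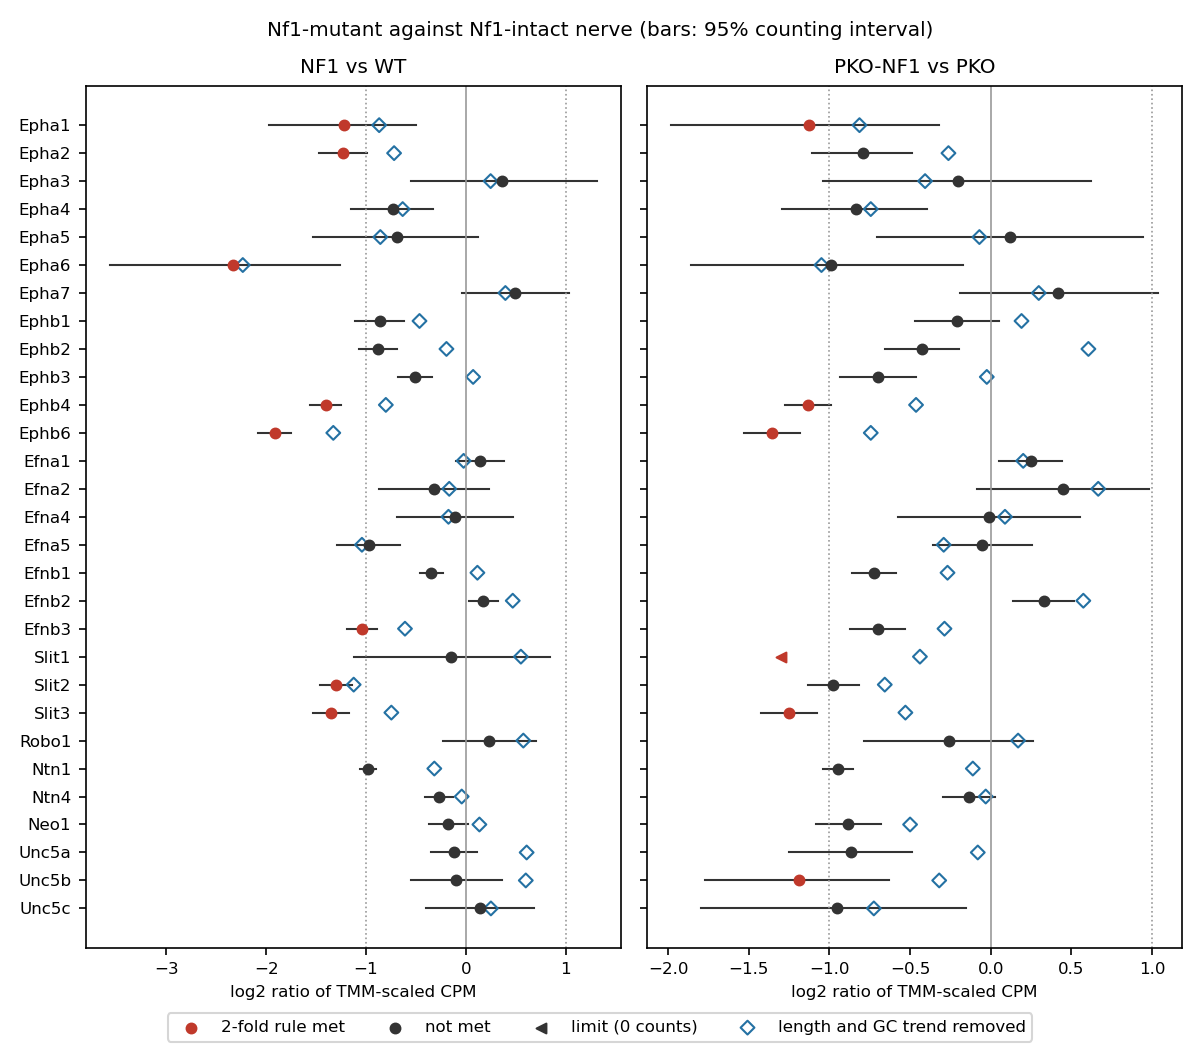
Log2 ratio of each guidance gene in NF1 vs WT (left) and PKO-NF1 vs PKO (right), with bars for the 95% counting interval, red points where the 2-fold rule was met, a triangle for a limit from 0 counts, open diamonds for the value with the length and GC trends removed, and dotted lines at 2-fold. Red points lie on the lower side in both panels, 8 on the left and 6 on the right, and most diamonds lie closer to 0 than their points.

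The promoter windows of genes that were lower in both Nf1 pairs are shown for their base composition, with Efnb2, which was not lower, for contrast. Promoter GC content is a separate measure from the GC content of the longest transcript, on which the trend of the ratios was fitted. RefSeq windows (GRCm38.p6, 250 bases before to 50 after the start) were found for 31 of the 36 genes, 36 windows in all. Their median GC content was 65.2%, against 52.7% over all 32851 windows. Capitals mark the GC box, GGGCGG on either strand, with overlapping matches counted. Epha1 is chr6:42373219-42373518, minus strand, Ephb4 is chr5:137349859-137350158, plus strand, and Ephb6 is chr6:41605261-41605560, plus strand. Slit3 is chr11:35121206-35121505, plus strand, and Efnb2 is chr8:8661193-8661492, minus strand.
Epha1: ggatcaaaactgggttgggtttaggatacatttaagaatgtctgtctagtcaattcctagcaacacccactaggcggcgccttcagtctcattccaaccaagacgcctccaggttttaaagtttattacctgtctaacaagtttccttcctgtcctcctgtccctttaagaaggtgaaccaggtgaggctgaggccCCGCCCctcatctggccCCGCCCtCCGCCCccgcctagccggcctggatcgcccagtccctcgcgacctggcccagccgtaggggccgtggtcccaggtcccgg
Ephb4: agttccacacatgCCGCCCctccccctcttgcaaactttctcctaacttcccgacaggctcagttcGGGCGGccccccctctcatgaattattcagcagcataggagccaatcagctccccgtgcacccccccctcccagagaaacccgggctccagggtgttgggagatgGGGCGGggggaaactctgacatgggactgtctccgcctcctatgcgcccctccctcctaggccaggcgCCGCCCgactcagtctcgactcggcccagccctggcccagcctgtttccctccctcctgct
Ephb6: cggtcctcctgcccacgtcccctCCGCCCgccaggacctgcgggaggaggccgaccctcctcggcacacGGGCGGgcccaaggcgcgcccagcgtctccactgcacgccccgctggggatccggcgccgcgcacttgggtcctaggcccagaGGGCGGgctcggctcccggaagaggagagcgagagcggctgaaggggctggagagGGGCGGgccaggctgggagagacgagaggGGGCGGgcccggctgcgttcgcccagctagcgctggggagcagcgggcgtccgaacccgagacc
Slit3: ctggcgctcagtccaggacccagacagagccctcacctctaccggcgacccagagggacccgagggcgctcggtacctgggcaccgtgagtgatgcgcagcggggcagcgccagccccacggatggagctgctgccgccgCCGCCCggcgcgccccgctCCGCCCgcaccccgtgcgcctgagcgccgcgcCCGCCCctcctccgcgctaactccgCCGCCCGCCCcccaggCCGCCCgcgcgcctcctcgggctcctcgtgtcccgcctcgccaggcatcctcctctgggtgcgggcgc
Efnb2: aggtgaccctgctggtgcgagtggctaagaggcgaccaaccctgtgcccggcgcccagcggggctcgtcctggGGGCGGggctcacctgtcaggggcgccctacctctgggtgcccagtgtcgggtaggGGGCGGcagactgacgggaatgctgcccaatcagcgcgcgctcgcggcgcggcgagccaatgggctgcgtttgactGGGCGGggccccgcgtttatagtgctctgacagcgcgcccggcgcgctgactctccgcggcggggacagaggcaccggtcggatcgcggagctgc

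The Epha1 window held 3 GC boxes, Ephb4 4, Ephb6 5, Slit3 6 and Efnb2 3. A GC box was present in 26 of the 36 windows (72.2%) and in 35.7% of all windows. The other motifs searched on both strands were TATAAA (5.56% of the 36 windows and 13.6% of all), TGACG (19.4% and 20.8%), ACAANG (27.8% and 41.2%), CACGTG (5.56% and 7.15%) and TGANTCA (0 windows and 7.81%). Efnb2 was the one window of the 5 printed with TATAAA or TGACG. The printed genes that were lower all had GC boxes, as did Efnb2, a single chosen example of a gene that was not. Epha3, Ephb1, Ephb2, Efna4, Efnb1, Robo1 and Unc5c, not called in either Nf1 pair, had windows without a GC box. Other uncalled genes, such as Ephb3 and Neo1, had GC boxes. Whether GC boxes go with the ratios was not tested. These matches describe letters in a window and not bound sites.

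EphB receptors, which bind ephrin-B ligands, were the receptors with the higher levels in nerve and were lower with Nf1 deleted. Per kb of longest transcript, the 5 EphB genes summed to 51.5 CPM per kb (WT), 44.2 (PKO), 21.03 (NF1) and 21.9 (PKO-NF1). Summed without length, the group was 2.31-fold below WT in NF1 (2.19 to 2.44) and 1.92-fold below PKO in PKO-NF1 (1.82 to 2.04). All 5 were below their Nf1-intact partner in both pairs, although Ephb3 in NF1 vs WT and Ephb1 and Ephb2 in PKO-NF1 vs PKO were above it once the trends were subtracted, and 2 of the 5 met the 2-fold rule in both.

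Ephb6 encodes an EphB receptor whose kinase domain is catalytically inactive. Its level was 77.7 CPM in WT, 59.3 CPM in PKO, 20.6 CPM in NF1 and 23.2 CPM in PKO-NF1. Both Nf1-mutant libraries were thus far below both others and close to each other. Ephb6 was 3.77-fold below WT in NF1 (3.37 to 4.22) and 2.56-fold below PKO in PKO-NF1 (2.27 to 2.88). Once the trends were subtracted the log2 ratios were -1.33 and -0.74, so that the call was kept in the first pair and not in the second. Myelinating Schwann cell markers moved the same way, 8 of 10 lower (NF1 vs WT) and 6 of 10 (PKO-NF1 vs PKO), or 7 and 5 of 10 with the trends removed, with sums of 22394 CPM in WT, 32607 CPM in PKO, 7073 CPM in NF1 and 16778 CPM in PKO-NF1 and none of the 10 at 0. Other Schwann cell lists differed from this. Lineage markers had 0 of 6 lower in NF1 vs WT and 1 of 6 in PKO-NF1 vs PKO, where their sum was 1.59-fold higher. Nonmyelinating Schwann cell markers had 2 of 8 and 1 of 8 lower, with a sum 1.52-fold higher in PKO-NF1 vs PKO. Per 1000 CPM of myelinating markers, Ephb6 stood at 3.47 CPM in WT, 1.82 CPM in PKO, 2.91 CPM in NF1 and 1.38 CPM in PKO-NF1. The part of these markers in the Ephb6 values was not tested. In bulk nerve, fewer cells of a type and less RNA per cell cannot be told apart.

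Ephb4 marks venous endothelium, where it meets ephrin-B2 of arteries. It was at 65.6 CPM in WT, 78.9 CPM in PKO, 24.8 CPM in NF1 and 36.0 CPM in PKO-NF1, so the groups did not overlap. Ephb4 was 2.65-fold below WT in NF1 (2.38 to 2.95) and 2.19-fold below PKO in PKO-NF1 (1.99 to 2.42). Neither call was kept with the trends removed, at log2 ratios of -0.80 and -0.46. Endothelial markers were lower too, 8 of 12 (NF1 vs WT) and 6 of 12 (PKO-NF1 vs PKO), or 6 and 2 of 12 with the trends removed, and their sum was 797 CPM in WT, 952 CPM in PKO, 329 CPM in NF1 and 555 CPM in PKO-NF1, with none at 0. Set against that sum, Ephb4 stood at 82.3 CPM in WT, 82.9 CPM in PKO, 75.2 CPM in NF1 and 64.9 CPM in PKO-NF1 per 1000 CPM of endothelial markers. On the same scale Efnb2, at 51.3 (WT), 26.0 (PKO), 140.3 (NF1) and 56.1 (PKO-NF1), and Unc5b, at 5.85 (WT), 5.55 (PKO), 13.2 (NF1) and 4.18 (PKO-NF1), were highest in NF1. The part of the endothelial markers in the Ephb4 values was not tested. A short stretch of its exons, 33 bases, overlaps the opposite-strand gene Zan.

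The other 3 EphB receptors were lower by less than 2-fold. Ephb2, the receptor of the Schwann cell sorting response, was at 34.3 CPM in WT, 22.2 CPM in PKO, 18.6 CPM in NF1 and 16.5 CPM in PKO-NF1. WT was the highest library, and PKO lay nearer to the mutants than to WT. Ephb2 was 1.84-fold below WT in NF1 (1.61 to 2.10) and 1.34-fold below PKO in PKO-NF1 (1.15 to 1.57). Its longest annotated transcript, 10.9 kb, is the longest of the 29, and with the trends removed the second log2 ratio turned from -0.43 to 0.61. Ephb3 was at 38.3 CPM in WT, 22.9 CPM in PKO, 26.9 CPM in NF1 and 14.2 CPM in PKO-NF1, so NF1 lay above PKO. With the trends removed its log2 ratios in the Nf1 pairs were 0.07 and -0.02. Ephb1 was at 21.01 CPM in WT, 15.7 CPM in PKO, 11.6 CPM in NF1 and 13.6 CPM in PKO-NF1, and its log2 ratio in PKO-NF1 vs PKO turned from -0.21 to 0.19 with the trends removed.

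EphA receptors, which bind ephrin-A ligands, were at lower levels, 10.1 CPM per kb (WT), 7.02 (PKO), 4.996 (NF1) and 4.37 (PKO-NF1) for the sum of 9 genes. Epha2 made up 57.2% of the mean of that sum. Epha2 was at 25.6 CPM in WT, 14.4 CPM in PKO, 10.9 CPM in NF1 and 8.30 CPM in PKO-NF1, highest in WT and lowest where both genes were mutated. It was 2.35-fold below WT in NF1 (1.99 to 2.78) and 1.73-fold below PKO in PKO-NF1 (1.40 to 2.15), with log2 ratios of -0.72 and -0.26 once the trends were removed. Epha4, a receptor that binds both ephrin classes, was at 7.26 CPM in WT, 7.08 CPM in PKO, 4.36 CPM in NF1 and 3.97 CPM in PKO-NF1. WT and PKO were alike within counting error, and the mutants 1.66-fold (1.25 to 2.22) and 1.79-fold lower (1.31 to 2.45). The trends changed these log2 ratios little, from -0.73 to -0.63 and from -0.84 to -0.74.

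The remaining EphA genes had at most 80 counts in any library. Epha6 had 39 (WT) and 41 counts (PKO) with Nf1 intact and 9 (NF1) and 19 counts (PKO-NF1) with it deleted. Epha6 was 5.04-fold below WT in NF1 (2.40 to 11.8) and 1.99-fold below PKO in PKO-NF1 (1.13 to 3.63), and with the trends removed it met the 2-fold rule in both pairs, at log2 ratios of -2.24 and -1.05. It was the only one of the 29 to do so, where 0.996% of all genes did. Epha1 had 50 and 45 counts with Nf1 intact (WT, PKO) and 25 and 19 with it deleted (NF1, PKO-NF1) and was 2.33-fold (1.41 to 3.92) and 2.18-fold lower (1.25 to 3.95), or -0.87 and -0.81 on the log2 scale with the trends removed. Of its exons 236 bases overlap Zyx on the opposite strand, and because the sources used here do not say how strand was handled, its counts are uncertain. Epha7 was the gene of the 29 with both mutants above, at 2.89 CPM in WT, 2.42 CPM in PKO, 4.06 CPM in NF1 and 3.23 CPM in PKO-NF1, and its intervals in both Nf1 pairs included 1. Epha3 (1.06 to 1.69 CPM) and Epha5 (1.17 to 1.89 CPM) had intervals that included 1 in all 4 comparisons. Epha10 had 0 or 1 counts in each library, and Epha8 had 0 in all 4.

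Before the trends were removed, summed ephrin-B ratios were closer to 1 than summed EphB ratios in both Nf1 pairs. With the trends removed the median log2 ratio in NF1 vs WT was 0.12 for ephrin-B and -0.46 for EphB genes. In PKO-NF1 vs PKO these medians were -0.27 and -0.02, so the order was then the other way. The 3 ephrin-B genes summed to 50.4 CPM per kb (WT), 39.7 (PKO), 37.1 (NF1) and 27.5 (PKO-NF1), and their summed counts were 1.30-fold below WT in NF1 (1.24 to 1.38) and 1.38-fold below PKO in PKO-NF1 (1.29 to 1.47). Efnb1, on the X chromosome, was at 75.9 CPM in WT, 68.1 CPM in PKO, 59.8 CPM in NF1 and 41.3 CPM in PKO-NF1. Per kb it was the highest of the 8 ephrins, with a mean of 18.8 CPM per kb. After trend removal its log2 ratio in NF1 vs WT turned from -0.35 to 0.12. Efnb3 was at 59.2 CPM in WT, 43.2 CPM in PKO, 28.9 CPM in NF1 and 26.6 CPM in PKO-NF1, 2.05-fold below WT in NF1 (1.85 to 2.28) and 1.63-fold below PKO in PKO-NF1 (1.44 to 1.83). With the trends removed the log2 ratios of Efnb3 were -0.61 and -0.29, and neither met 2-fold.

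Efnb2, the arterial ephrin, ran against Ephb4. It was at 40.9 CPM in WT, 24.8 CPM in PKO, 46.2 CPM in NF1 and 31.1 CPM in PKO-NF1, so each Nf1-mutant library was above its partner, by 1.13-fold (1.02 to 1.25) and 1.25-fold (1.10 to 1.43), both under 2-fold. Per kb the quotient of Efnb2 to Ephb4 was 0.564 (WT), 0.284 (PKO), 1.69 (NF1) and 0.783 (PKO-NF1). The quotient was 2.996-fold above WT in NF1 (counting interval 2.59 to 3.46, log-normal) and 2.75-fold above PKO in PKO-NF1 (2.35 to 3.23). Scaling between libraries cancels in it. Once the trends were subtracted the log2 difference was 1.27 and 1.04, against 1.58 and 1.46. In the other direction it was 1.98-fold lower in PKO than in WT (1.72 to 2.29) and 2.16-fold below NF1 in PKO-NF1 (1.84 to 2.54). This pair of genes was chosen after its values were seen.

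Of the ephrin-A genes, Efna1 was at 15.6 CPM in WT, 22.8 CPM in PKO, 17.3 CPM in NF1 and 27.1 CPM in PKO-NF1, above its partner with intact P2ry14 in both P2ry14 pairs (1.46-fold, 1.25 to 1.71, and 1.57-fold, 1.36 to 1.81). With the trends removed these log2 ratios were 0.02 and 0.37. Efna5, which is expressed widely in the developing nervous system, was at 13.3 CPM in WT, 10.7 CPM in PKO, 6.80 CPM in NF1 and 10.3 CPM in PKO-NF1. NF1 stood alone as the low library, 1.961-fold below WT (1.58 to 2.45), and with the trends removed that log2 ratio was -1.04, past 2-fold. Efna2 (2.84 to 4.21 CPM) and Efna4 (2.79 to 3.26 CPM) had intervals that included 1 in both Nf1 pairs. Efna3 had 2 to 7 counts per library.

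**Figure D4:**
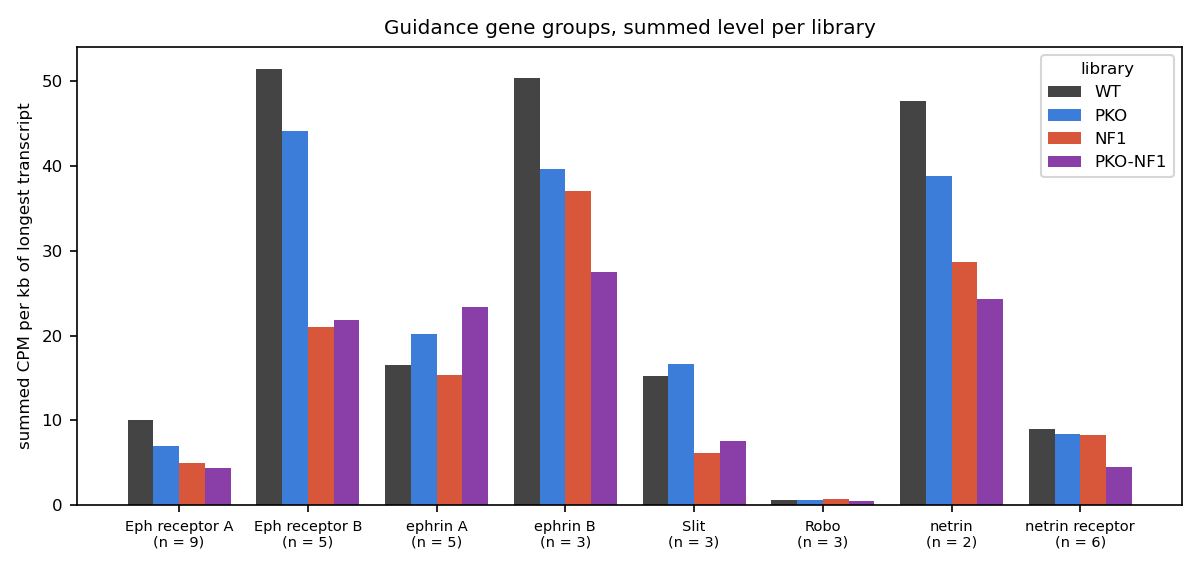
Bars give the summed CPM per kb of longest transcript of each guidance gene group in each of the 4 libraries, 1 library per genotype and therefore no error bar; n is the number of genes summed, including those near 0. EphB receptors stand at 51.5 and 44.2 CPM per kb in WT and PKO and at 21.03 and 21.9 in NF1 and PKO-NF1, whereas ephrin-A genes span 15.4 to 23.3.

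Slit ligands had the largest group difference of the 8 groups in NF1 vs WT, while Robo1 to Robo3 were scarce. Summed Slit counts were 2.47-fold below WT in NF1 (2.27 to 2.68) and 2.16-fold below PKO in PKO-NF1 (1.99 to 2.34). Slit2 was at 58.6 CPM in WT, 58.6 CPM in PKO, 23.7 CPM in NF1 and 29.8 CPM in PKO-NF1. WT and PKO were equal within counting error and both mutants far below them. Slit2 was 2.47-fold lower in NF1 (2.21 to 2.76) and 1.97-fold lower in PKO-NF1 (1.76 to 2.19), and with the trends removed its log2 ratios were -1.12, still past 2-fold, and -0.66. Slit3 was at 47.7 CPM in WT, 56.0 CPM in PKO, 18.8 CPM in NF1 and 23.6 CPM in PKO-NF1, 2.54-fold lower in NF1 (2.25 to 2.88) and 2.38-fold lower in PKO-NF1 (2.11 to 2.68). The trends, which weigh more on this GC-rich transcript (56.8%) than on Slit2 (45.5%), took its log2 ratios to -0.75 and -0.53.

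The quotient of Slit2 to Slit3 per kb stayed between 0.550 and 0.665 in the 4 libraries. Its fold in NF1 vs WT was 1.03, with a counting interval that included 1 (0.874 to 1.22). The interval excluded 1 in PKO-NF1 vs PKO (1.21, 1.03 to 1.42) and in PKO vs WT (0.853, 0.751 to 0.969). With the trends removed the log2 difference was -0.38 (NF1 vs WT) and -0.13 (PKO-NF1 vs PKO). Fibroblast markers, genes of one of the cell types that can make Slits, summed to 9047 CPM in WT, 13649 CPM in PKO, 8709 CPM in NF1 and 15313 CPM in PKO-NF1. None of the 10 was called lower in either Nf1 pair, 1 was called higher in PKO-NF1 vs PKO, and none was at 0. The list's median log2 ratio was -0.24 (NF1 vs WT, 6 of 10 below 0) and -0.38 (PKO-NF1 vs PKO, 7 of 10 below 0), and with the trends removed -0.07 and 0.06, with 1 then lower in the second pair. Their part in the Slit values was not tested. Slit1 had 19 (WT) and 8 counts (PKO) with Nf1 intact and 20 (NF1) and 0 counts (PKO-NF1) with it deleted. Its level in PKO-NF1 was at least 2.46-fold lower than in PKO and at least 5.54-fold lower than in NF1, taking 3 counts as its upper limit there. The exact counting intervals of these ratios begin at 1.57-fold and 4.11-fold. Slit1 was also 2.49-fold lower in PKO than in WT (1.04 to 6.58). Net of the trends its log2 ratio was -0.87 (PKO vs WT) and -0.44 (PKO-NF1 vs PKO), both calls lost, and -1.74 (PKO-NF1 vs NF1), where the call was kept.

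Robo1, the most abundant of the 3 Robo receptors of axon guidance, differed less than its ligands. It was at 4.01 CPM in WT, 4.16 CPM in PKO, 4.72 CPM in NF1 and 3.48 CPM in PKO-NF1, and every interval included 1. The Slit2 to Robo1 quotient was 2.90-fold below WT in NF1 (2.08 to 4.04) and 1.64-fold below PKO in PKO-NF1 (1.14 to 2.36), a pair also chosen after its values were seen. Robo2 had 5 to 9 counts and stayed below 1 CPM, and Robo3 had 0 counts in all 4 libraries, where 3 counts corresponded to at most 0.183 CPM. At 1.12 CPM in its highest library Slit1 was the gene just inside the 1 CPM limit, and Robo2 at 0.531 CPM and Dcc at 0.506 CPM were just outside.

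Ntn1, which encodes netrin-1, had the highest level per kb of the 36 genes, with a mean of 23.5 CPM per kb, and 91.9% of genes at 1 CPM had a highest level no greater than that of Ntn1. Its level was 199 CPM in WT, 165 CPM in PKO, 101 CPM in NF1 and 85.7 CPM in PKO-NF1, with the mutants apart from the others. Ntn1 was 1.98-fold below WT in NF1 (1.87 to 2.09) and 1.93-fold below PKO in PKO-NF1 (1.81 to 2.05), just short of 2-fold in both. After trend removal its log2 ratios were -0.32 and -0.11. Ntn4, a netrin of basement membranes, was at 50.2 CPM in WT, 39.1 CPM in PKO, 41.7 CPM in NF1 and 35.6 CPM in PKO-NF1, a narrower range than that of Ntn1. Ntn4 was 1.20-fold below WT in NF1 (1.09 to 1.33), and its interval in PKO-NF1 vs PKO included 1 (0.982 to 1.23).

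Netrin receptors were at modest levels and differed between the 2 Nf1 pairs in size. Their summed counts were 1.09-fold below WT in NF1, with an interval that included 1 (0.995 to 1.20), and 1.88-fold below PKO in PKO-NF1 (1.68 to 2.10). The difference between the pairs was not tested. Neo1, neogenin, which also binds repulsive guidance molecules, was at 26.0 CPM in WT, 34.6 CPM in PKO, 23.0 CPM in NF1 and 18.8 CPM in PKO-NF1. Neo1 was 1.13-fold below WT in NF1 (0.988 to 1.29) and 1.84-fold below PKO in PKO-NF1 (1.60 to 2.12), where PKO was the high library. Once the trends were subtracted the first of these log2 ratios was 0.14 and the second -0.50.

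Unc5a, a repulsive netrin receptor, was at 17.4 CPM in WT, 9.78 CPM in PKO, 16.0 CPM in NF1 and 5.37 CPM in PKO-NF1. Both P2ry14-null libraries were below both others. Unc5a was 1.78-fold lower in PKO than in WT (1.47 to 2.16) and 2.99-fold below NF1 in PKO-NF1 (2.35 to 3.83), with log2 ratios of -0.37 and -0.94 once the trends were removed. Its transcript has the highest GC content of the expressed genes, 62.7%, and 34 bases of its exons overlap the opposite-strand gene Hk3. Unc5b, a netrin receptor of sprouting vessels, was at 4.66 CPM in WT, 5.29 CPM in PKO, 4.36 CPM in NF1 and 2.32 CPM in PKO-NF1. It was 2.28-fold below PKO in PKO-NF1 (1.55 to 3.42), or -0.32 on the log2 scale with the trends removed. Unc5c was at 3.13 CPM in WT, 2.36 CPM in PKO, 3.45 CPM in NF1 and 1.22 CPM in PKO-NF1, so PKO-NF1 was the low library. It was 2.83-fold below NF1 in PKO-NF1 (1.70 to 4.92), or -0.87 with the trends removed. Dcc had 1 and 9 counts with Nf1 intact (WT, PKO) and 1 and 3 with it deleted (NF1, PKO-NF1), and Unc5d had 0 counts in WT, PKO and NF1 and 2 in PKO-NF1.

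Loss of P2ry14 was compared in PKO vs WT and in PKO-NF1 vs NF1. In PKO vs WT Slit1 was the only one of 29 guidance genes called lower, where 5.25% of 14619 genes were, and none was higher, where 10.1% were; scaled by total counts alone, 6 were lower, as were 18.7% of all genes. In PKO-NF1 vs NF1 3 were lower, Slit1, Unc5a and Unc5c (13.8% of 14688 genes), and 1 was higher, Epha6 (7.91%). These shares lie below the background. Slit1 was the gene lower in both pairs, with 19 against 8 and 20 against 0 counts, and 2.87% of all genes were lower and 2.98% higher in both. Net of the trends no guidance gene was lower (background 5.29%) or higher (background 5.52%) in PKO vs WT, and in PKO-NF1 vs NF1 Epha6 and Ephb4 were higher (background 5.77%) and Slit1 lower (background 10.1%). None was then called the same way in both P2ry14 pairs, as 1.21% of all genes were on the higher and 2.43% on the lower side. The median log2 ratios of the 29 were -0.26 and -0.14, against -0.08 and -0.01 over all genes. PKO vs WT shares libraries with both Nf1 comparisons, as does PKO-NF1 vs NF1.

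**Figure D5:**
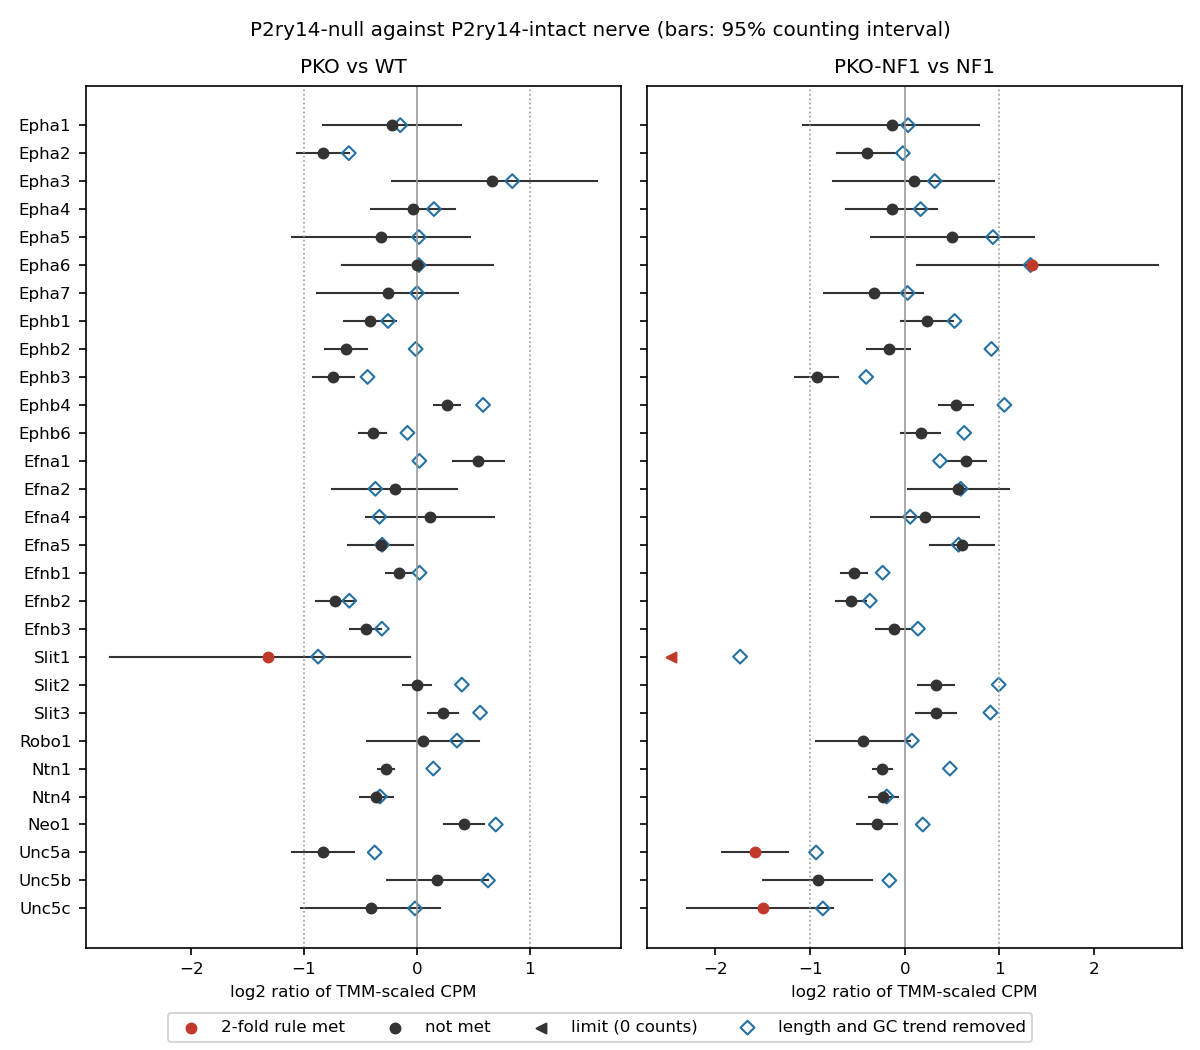
Log2 ratio of each guidance gene in PKO vs WT (left) and PKO-NF1 vs NF1 (right), drawn as in the plot of the Nf1 pairs: bars are 95% counting intervals, red points met the 2-fold rule, triangles are limits from 0 counts and diamonds have the length and GC trends removed. On the left only Slit1 is red, and on the right Epha6 is red on the higher side and Slit1, Unc5a and Unc5c on the lower side.

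Other genes of the same pathways were read from a list of 95 ligands, receptors, co-receptors, sheddases and signalling partners, of which 94 were in the table and 87 reached 1 CPM. In NF1 vs WT 2 were higher (2.30%, against 10.4% of all genes) and 7 lower (8.05% against 6.31%). In PKO-NF1 vs PKO 5 were higher (5.75% against 5.24%) and 15 lower (17.2% against 9.78%). The median log2 ratios were -0.25 and -0.14. After trend removal the counts were 5 higher and 2 lower, and 2 higher and 4 lower. Of all genes 7.63% were then higher and 4.68% lower in NF1 vs WT, and 2.96% and 5.07% in PKO-NF1 vs PKO. Lower in both Nf1 pairs were Ntn3, Sdc3, Mmp9 and Arhgef15, as were 2.62% of all genes. After trend removal none of the pathway genes was lower in both, as 0.996% of all genes were. Anks1b was then higher in both (log2 ratios 1.01 and 2.30), as were 0.74% of all genes. Before trend removal Anks1b was 1.70-fold (1.33 to 2.19) and 3.98-fold higher (2.33 to 7.12). Sdc3, syndecan-3, a heparan sulfate proteoglycan of Schwann cells, was at 313 CPM in WT, 266 CPM in PKO, 147 CPM in NF1 and 120 CPM in PKO-NF1 (2.13-fold, 2.03 to 2.22, and 2.22-fold lower, 2.11 to 2.34). Arhgef15, an Eph-coupled guanine nucleotide exchange factor of endothelium, was at 24.8 CPM in WT, 25.8 CPM in PKO, 11.8 CPM in NF1 and 6.77 CPM in PKO-NF1 (2.10-fold, 1.79 to 2.48, and 3.802-fold lower, 3.08 to 4.72). Ntn3, a further netrin, had 97 and 111 counts with Nf1 intact (WT, PKO) and 40 and 28 with it deleted (NF1, PKO-NF1). Net of the trends the log2 ratios in NF1 vs WT were -0.43 for Sdc3, -0.55 for Arhgef15 and -0.79 for Ntn3, all under 2-fold. In PKO-NF1 vs PKO they were -0.38, -1.36 and -1.04, past 2-fold for Arhgef15 and Ntn3. Robo4, the endothelial Robo, was at 27.9 CPM in WT, 31.3 CPM in PKO, 14.9 CPM in NF1 and 11.2 CPM in PKO-NF1, 1.87-fold (1.61 to 2.17) and 2.79-fold lower (2.36 to 3.31), or -0.39 and -0.89 on the log2 scale with the trends removed.

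For P2ry14, 2 of these 87 genes were higher (2.30%, against 10.1% of all genes) and 4 lower (4.60% against 5.25%) in PKO vs WT. In PKO-NF1 vs NF1 4 were higher (4.60% against 7.91%) and 17 lower (19.5% against 13.8%). Net of the trends the counts were 1 higher and 3 lower, and 7 higher and 6 lower. Of all genes 5.52% were then higher and 5.29% lower in PKO vs WT, and 5.77% and 10.1% in PKO-NF1 vs NF1. Under total counts PKO vs WT had 1 higher and 27 lower, where 5.14% and 18.7% of all genes were. Mmp9, a matrix metalloproteinase, and the adaptor Grb7 were higher in both P2ry14 pairs, and Ntn5, Arhgap39, Vav2 and Anks1b were lower in both. Over all genes 2.98% were higher and 2.87% lower in both. Mmp9 was at 23.3 CPM in WT, 71.3 CPM in PKO, 10.7 CPM in NF1 and 32.6 CPM in PKO-NF1, 3.06-fold higher in both pairs (2.73 to 3.43 and 2.61 to 3.61). It was thus higher without P2ry14 and lower with Nf1 deleted, and with the trends removed the call was kept in the P2ry14 pairs and not in the Nf1 pairs, at log2 ratios of -0.80 and -0.83. Arhgap39, a Robo-associated GTPase-activating protein, was at 162 CPM in WT, 55.8 CPM in PKO, 95.2 CPM in NF1 and 39.0 CPM in PKO-NF1, 2.90-fold lower in PKO than in WT (2.70 to 3.12) and 2.44-fold below NF1 in PKO-NF1 (2.23 to 2.67). Once the trends were subtracted its log2 ratios were -1.21 and -0.76. Vav2, an exchange factor that acts downstream of Eph receptors, was 2.02-fold (1.81 to 2.27) and 2.14-fold lower (1.86 to 2.46), at 54.2 CPM in WT, 26.8 CPM in PKO, 36.5 CPM in NF1 and 17.1 CPM in PKO-NF1, and neither call was kept with the trends removed (log2 ratios of -0.69 and -0.53). Ntn5 was 2.12-fold (1.45 to 3.15) and 2.53-fold lower (1.62 to 4.06), and its calls were kept net of the trends. Grb7, with 11 to 32 counts per library, was 2.17-fold (1.03 to 4.88) and 2.40-fold higher (1.28 to 4.69), and its call in PKO vs WT was lost with the trends removed (log2 ratio 0.97). Anks1b had 101 and 18 counts with Nf1 intact (WT, PKO) and 200 and 66 with it deleted (NF1, PKO-NF1). Its call in PKO-NF1 vs NF1 was lost with the trends removed (log2 ratio -0.86).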

How the data were processed

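RNA of sciatic nerve was sequenced in 4 libraries, 1 per genotype. Per the labels' protocols, a TruSeq kit and 1 ug of RNA per library were used. Per the submitters' processing notes, FastQC 0.11.7, HISAT2 2.0.5, featureCounts 1.5.2 and build mm10 were used. The authors deposited whole-number counts per gene symbol. The treatment of strand and of multi-mapping reads was not given in the sources used here, so counts of overlapping genes are uncertain.

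Counts were scaled with TMM factors (edgeR 4.0.16; WT 1.20, PKO 0.873, NF1 1.03, PKO-NF1 0.922). Genes at 1 CPM or more in any library were kept, 14700 in all. Ratios have exact conditional 95% intervals, called at 2-fold with the interval excluding 1. These reads carry no molecular identifiers, so PCR copies are counted as separate and intervals cover counting error only. A library at 0 counts was set to 3 for a limit on the fold, and no fold was given where both had 3 or fewer. Ratios and trend removal were tested on simulated data. Longest transcripts and GC content came from GENCODE M21 (GRCm38), which matched 98.5% of symbols. Trends were splines with 4 degrees of freedom in log10 length and in GC content, fitted over kept genes outside the muscle list and centred on the median gene.

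The members and gene lists were chosen with earlier results of these data known. All members were accounted for. Values in each library were given for members at 5 CPM and for those called, intervals for members called in any comparison, and pathway genes were named where called in both pairs of a kind, with Robo4. Intervals of further members were added where a sentence compares them. Alternatives were DESeq2 1.42.0 size factors, total counts, trend removal, muscle gene removal, a 1.5-fold rule, and a CPM minimum of 5 or none.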

Additional observations from a re-analysis of the deposited data

Results flagged for a closer look

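Efna5 and Neo1 differed in direction between the P2ry14 pairs, with both counting intervals excluding 1. The log2 ratio of Efna5 was -0.32 in PKO vs WT and 0.60 in PKO-NF1 vs NF1. That of Neo1 was 0.42 in PKO vs WT and -0.29 in PKO-NF1 vs NF1. The difference between the pairs was not tested, since each genotype has 1 library. With the length and GC trends removed Efna5 kept both directions, at -0.31 and 0.57, and Neo1 was higher in both pairs, at 0.70 and 0.19.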

How the results depend on the processing

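The limits are 1 library per genotype, counting intervals without spread between animals, and libraries that differ in sex-linked genes, muscle transcripts, ribosomal protein share and the length and GC trends. Genes near 1 CPM rest on few counts. No paired analysis was possible because each genotype has 1 library and the labels carry no replicate numbers, and no library could be left out. No called guidance gene changed direction under any alternative, while ratios of uncalled genes such as Ephb2 changed sign with the trends removed. DESeq2 size factors and removal of muscle genes kept every count of guidance genes and of other pathway genes within 1.5 times. The alternatives for other pathway genes were chosen after seeing the data.

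With total counts alone, the median log2 ratio of guidance genes in NF1 vs WT was -0.73 (-0.22 over all genes), 6 were lower in PKO vs WT, and 0 were higher and 5 lower in PKO-NF1 vs NF1 (18.7% of all genes lower in PKO vs WT, and 5.20% higher and 17.9% lower in PKO-NF1 vs NF1). Of other pathway genes 13 were lower in NF1 vs WT (median -0.47), 1 was higher and 27 lower in PKO vs WT (median -0.69), and the median in PKO-NF1 vs NF1 was -0.30. Over all genes 10.8% were lower in NF1 vs WT and 5.14% higher in PKO vs WT. The medians over all genes were -0.54 in PKO vs WT and -0.18 in PKO-NF1 vs NF1. With no filter 1 guidance gene, Dcc, was higher in PKO vs WT, where 9.88% of all genes were. With a filter of 5 CPM the median in NF1 vs WT was -0.86 (-0.02 over all genes), and 0 guidance genes were lower in PKO vs WT (4.17% of all genes). In PKO-NF1 vs NF1 0 were higher and 1 lower (6.98% and 12.5% of all genes). Among other pathway genes 1 was higher in PKO vs WT and 1 in NF1 vs WT (9.40% and 9.29% of all genes).

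At 1.5-fold, 13 guidance genes were lower in NF1 vs WT, 17 in PKO-NF1 vs PKO and 6 in PKO vs WT, and 3 were higher and 5 lower in PKO-NF1 vs NF1. Of all genes 16.7%, 20.3% and 15.4% were then lower in the first 3 comparisons, and 19.97% were higher and 24.1% lower in PKO-NF1 vs NF1. Higher in the first 3 comparisons were 19.2%, 15.7% and 16.3% of all genes. Other pathway genes then numbered 4 higher and 20 lower (NF1 vs WT), 14 and 24 (PKO-NF1 vs PKO), 5 and 26 (PKO vs WT), and 13 higher with 30 lower (PKO-NF1 vs NF1). With the length and GC trends removed, 4 guidance genes were lower in NF1 vs WT (median -0.17), 1 in PKO-NF1 vs PKO (median -0.27) and 0 in PKO vs WT, and 2 were higher and 1 lower in PKO-NF1 vs NF1. Other pathway genes were then 5 higher with 2 lower for NF1 vs WT (median -0.0705), 2 with 4 for PKO-NF1 vs PKO (median reversed to 0.0374), 1 higher in PKO vs WT (median -0.0963), and 7 higher and 6 lower in PKO-NF1 vs NF1 (median reversed to 0.0763). These shifts follow from the trend subtracted from each ratio, and the cause of the trends was not tested.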
